A study of Mus musculus with 3 samples.

Results

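Introns of 100 kb or more were examined for crosslinks of Tra2β in the mouse testis. They were the 985 introns of that length, in 674 genes, among the 174222 introns with intronic bases in the canonical transcripts of 20222 protein-coding genes. Bases that were exonic in any transcript on the same strand had been taken out, which removed 2.12% of their length. The median length was 142.6 kb and the longest, intron 3 of Gm37240, measured 1244.6 kb. First introns made up 387 of them and second introns 220. Overlapping transcripts made 42 of the introns share bases with another, most of them in the protocadherin alpha and gamma and the Ugt1a clusters, where alternative first exons are spliced to common downstream exons.

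The crosslinks came from iCLIP of testis cells of adult wild type mice, released by mincing, irradiated with UV-C and precipitated with a polyclonal antibody against Tra2β. The design had 1 group with 3 biological replicates, and each comparison was made within a library because no control library was analysed here. The testis holds germ cells of all stages mixed with somatic cells, so fewer cells of a type and less RNA per cell cannot be told apart. In iCLIP the cDNA stops at the nucleotide that was fixed to the protein, and 1 crosslink is 1 unique cDNA at 1 nucleotide.

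Tra2β is a nuclear splicing regulator that binds purine-rich RNA, with GAA-containing sequences as its best known sites, and it is best known for activating exons from within. The upstream end of an intron is transcribed before the downstream end, so nascent RNA that is not yet spliced holds more copies of the upstream end, and the more so the longer the intron. Many genes with such introns encode adhesion molecules, synaptic proteins and ion channels, and a smaller group encodes parts of the sperm flagellum.

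The libraries held 348033, 619571 and 488719 crosslinks in replicates 1, 2 and 3. All 8 spermatid markers and all 7 spermatocyte markers examined had crosslinks in every library, whereas the blood and liver markers had none. Replicate 2 stood apart, with 508 CPM (crosslinks scaled to the library total) summed over the spermatid markers against 2359 in replicate 1 and 2824 in replicate 3. The main values are therefore given per library. Of the 2 brain markers, Gfap had no crosslinks and Slc17a7 had 6, 22 and 3.

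Short stretches in which crosslinks piled up in all 3 libraries are shown first, because they lie in windows that were found dense in each library in turn, as described below. Each is the 41 nt with the most crosslinks within the densest 1 kb window of its intron, read 5′ to 3′ on the transcribed strand of GRCm39. Capitals mark GAA-rich pentamers searched on the transcribed strand, with overlaps merged. They were the pentamer GAAGA with its shifted forms, which are AGAAG as well as AAGAA, and the pentamer GAAGG with its shifted form, which is GGAAG.
Erc2 intron 13, chr14:27867859-27867899, plus strand: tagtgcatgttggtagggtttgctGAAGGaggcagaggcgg
Robo1 intron 2, chr16:72621458-72621498, plus strand: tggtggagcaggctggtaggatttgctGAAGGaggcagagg
Inpp4b intron 2, chr8:82330755-82330795, plus strand: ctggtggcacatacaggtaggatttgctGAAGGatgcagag
Nkain2 intron 1, chr10:32692656-32692696, minus strand: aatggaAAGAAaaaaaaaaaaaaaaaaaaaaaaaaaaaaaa
Afg2a intron 14, chr3:37535489-37535529, plus strand: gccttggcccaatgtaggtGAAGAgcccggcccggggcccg
Cmss1 intron 1, chr16:57212010-57212050, minus strand: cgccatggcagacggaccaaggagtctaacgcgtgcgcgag
Cyp7b1 intron 1, chr3:18231775-18231815, minus strand: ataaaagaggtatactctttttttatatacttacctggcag
Zbtb20 intron 3, chr16:42988544-42988584, plus strand: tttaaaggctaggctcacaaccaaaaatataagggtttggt

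Very long introns made up 20.4% of all intronic bases and held 12.3%, 15.99% and 11.2% of the intronic crosslinks of replicates 1, 2 and 3. These were 13524, 31312 and 14315 crosslinks, counted at distinct bases, or 3.89%, 5.05% and 2.93% of each library. Crosslinks were sparse and mostly single, since 99.5%, 98.6% and 99.4% of the crosslinked positions had 1 cDNA in that library. Over all 3 libraries, 5 introns had no crosslink, and these lay in Cntnap2, Gpr158, Grin2b, Megf11 and Tnr, all genes best known from the nervous system. At least 20 crosslinks in total were found in 446 introns. The order of the introns by crosslinks was similar between libraries, with a Spearman's rho of 0.864 to 0.876 across the 985 introns, which differ in length and are not independent replicates.

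A few introns held much of the signal. The 10 most crosslinked introns held 19.2%, 21.2% and 18.8% of the crosslinks of very long introns, and the 100 most crosslinked held 60.6%, 60.1% and 58.8%. At the top stood intron 7 of Ctnna3 (chr10:63688605-64086476), which encodes αT-catenin, a link between cadherins and actin. It had 596, 1248 and 561 crosslinks. Intron 1 of Magi2 (chr5:19432588-19883650), a membrane scaffold gene, had 346, 1306 and 386. Intron 11 of Spag16 (chr1:70036068-70304064), which encodes a protein of the central apparatus of the axoneme, had 364, 916 and 410. Replicate 2 had the most crosslinks in each of these introns, but the counts are not scaled to depth, and it was also the deepest library. Scaled to the library totals, intron 7 of Ctnna3 had 1625 ± 440 CPM (SD, n = 3).

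The next introns by crosslinks belonged to genes of several roles. Intron 3 of Agbl4, a carboxypeptidase gene acting on tubulin tails, had 329, 850 and 345 crosslinks. Intron 4 of Immp2l, a mitochondrial inner membrane peptidase gene, had 385, 668 and 353. Intron 2 of Magi2 had 175, 426 and 196. Also among the first 10 were Cmss1 intron 1, Spag16 intron 16 and intron 3 of Cfap299, a gene of cilia and flagella. Intron 1 of Cmss1 had 125, 566 and 134 crosslinks against only 2, 8 and 7 in the shorter introns of the gene. Of the crosslinks in this intron, 31, 423 and 33 lay in 1 window of 1 kb, or 24.8%, 74.7% and 24.6%. Cmss1 intron 1 was the exception among the 10 in the test described below, which called the other 9 higher than their reference.

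**Figure D1:**
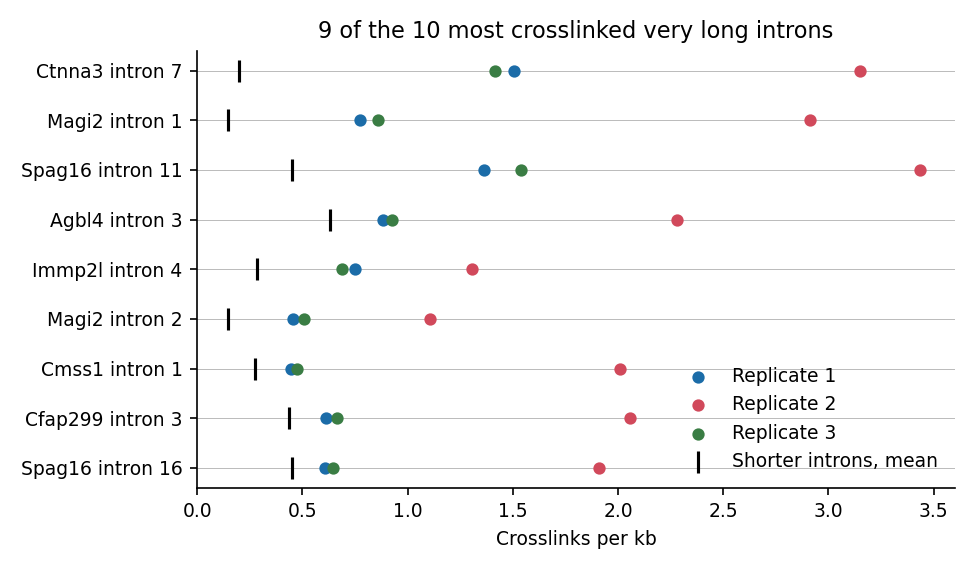
Crosslinks per kb (horizontal axis) in 9 of the 10 most crosslinked very long introns, with a point for each replicate and a black bar for the mean density of the shorter introns of the same transcript. All points of each intron lie to the right of its bar, and replicate 2 (red), the deepest library, lies furthest right on this scale, which is not adjusted for depth, as in Ctnna3 intron 7 with 3.15 per kb in replicate 2 against 1.504 and 1.415.

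Scaled to length, intron 11 of Spag16 was the densest, with 1.37, 3.44 and 1.54 crosslinks per kb. Intron 7 of Ctnna3 followed with 1.504, 3.149 and 1.415 per kb, and the ranges of these introns overlapped. Among the 10 highest densities were also Pde1c intron 2, Ssh2 intron 1 and Igsf11 intron 1. Pde1c encodes a phosphodiesterase of cyclic nucleotides, Ssh2 a cofilin phosphatase and Igsf11 an adhesion molecule. The intron of Igsf11 was the exception to the high values in replicate 2, with 0.943, 1.15 and 1.09 per kb. The 5 longest introns ran from near the median density to well above it. Gm37240 intron 3 had 0.0196, 0.0522 and 0.0245 crosslinks per kb, Kcnip4 intron 1 had 0.176, 0.339 and 0.155, and Asic2 intron 1 had 0.0192, 0.0727 and 0.0141. Pcdha4b intron 1 had 0.140, 0.431 and 0.164 and Gm38666 intron 1, which shares bases with it, had 0.137, 0.408 and 0.157. Across all 985 introns the mean density ran from 0 to 2.11 per kb, with a median of 0.0334, and the median was 0.0184, 0.0597 and 0.0245 in replicates 1, 2 and 3.

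Compared with all shorter introns, very long introns were sparsely crosslinked. Their pooled density was 0.0833, 0.198 and 0.0884 crosslinks per kb in replicates 1, 2 and 3. It was 0.126, 0.229 and 0.139 per kb in the 15367 introns of 10 to 100 kb, and 0.167, 0.267 and 0.209 in introns under 10 kb. The order by length was the same in all 3 libraries.

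The order turned when the comparison was made inside the same transcripts. Shorter introns of the transcripts that hold a very long intron had a pooled density of 0.0606, 0.128 and 0.0693 per kb, below the very long introns in each library. Within 655 transcripts, the crosslinks observed in very long introns were 1.086, 1.098 and 1.066 times the number given by length alone (mean 1.08 ± 0.016, SD, n = 3). Very long introns make up 62.7% of the intronic bases of their transcripts. Their own crosslinks enter the expected number, which draws this ratio towards 1. The ratio of densities itself, pooled over transcripts by the Mantel-Haenszel method, was 1.36, 1.45 and 1.26 (1.36 ± 0.097, SD, n = 3). That measure was chosen after seeing the data.

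The excess was not even across lengths. The values by length cover the transcripts of all 985 very long introns, including 22 introns that have no shorter intron as reference. Observed over expected crosslinks were 0.61 ± 0.15 for 1217 introns under 1 kb, 0.94 ± 0.14 for 4576 introns of 1 to 10 kb, 0.81 ± 0.022 for introns of 10 to 50 kb and 0.86 ± 0.0048 for those of 50 to 100 kb. They were 0.97 ± 0.019 for 742 introns of 100 to 200 kb, 1.26 ± 0.0040 for 222 introns of 200 to 500 kb and 1.06 ± 0.014 for 21 introns of 500 kb or more (all SD, n = 3). The ratio thus did not rise steadily with length. Without the 10 most crosslinked introns, the ratio for all very long introns fell to 1.05 ± 0.018 and stayed above 1 in each library.

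Intron by intron, 684 very long introns had enough crosslinks for a test against the shorter introns of their transcript. Of these, 29 in 20 genes were called higher and 19 in 13 genes lower by the exact binomial test with Benjamini-Hochberg adjustment in all 3 libraries. Over introns of all lengths, 0.282% were called higher and 0.0945% lower. Higher calls were most frequent among introns with at least 100 crosslinks. There 17.9% of very long introns and 18.3% of introns of 10 to 100 kb were called higher, beside 55.2% of the 29 introns under 10 kb. Between 50 and 100 crosslinks the share was 0.775% of very long introns and 3.95% of introns of 10 to 100 kb. These classes are set by the intron's own crosslinks, which the test also counts. A shorter intron reaches them only when denser, so the shares do not compare the length classes. The median log2 fold over the 684 introns was 0.19. The fold was above 0 in all 3 libraries in 259 of them and below 0 in 188.

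**Figure D2:**
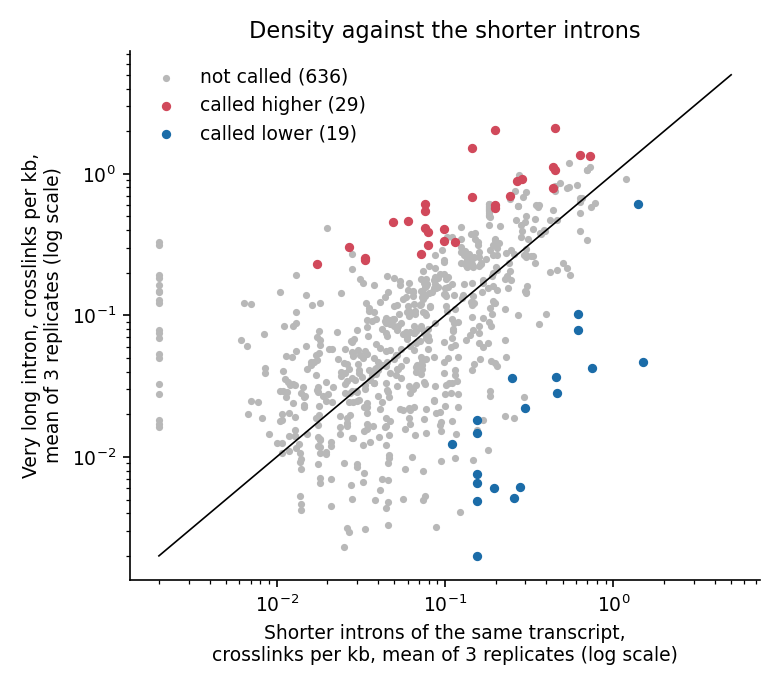
Mean density over 3 replicates of each of the 684 tested very long introns (vertical axis, log scale) against that of the shorter introns of its transcript (horizontal axis, log scale), with densities under 0.002 per kb drawn at 0.002. The line marks equal densities, the 29 introns called higher (red) lie above it and the 19 called lower (blue) below it.

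Among the introns called higher, intron 7 of Ctnna3 differed most clearly. Its 596, 1248 and 561 crosslinks stood against 85, 184 and 89 in 13 shorter introns that are longer in sum, a log2 fold of 3.33 ± 0.079 (SD, n = 3). The largest adjusted p over the libraries was 3.7e-128 by the exact binomial test. Introns 5 and 9 of the same gene were also called higher, with log2 folds of 1.48 ± 0.18 and 1.44 ± 0.37. In Magi2, intron 1 had a log2 fold of 3.27 ± 0.36 and intron 2 one of 2.30 ± 0.33, over 39, 94 and 29 crosslinks in 16 shorter introns.

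Macrod2, which encodes an ADP-ribose hydrolase, had 3 consecutive introns called higher. Intron 3 had 141, 281 and 186 crosslinks, intron 4 had 81, 208 and 75, and intron 5 had 130, 338 and 139, against 14, 43 and 22 in all shorter introns together. The log2 folds were 2.92 ± 0.30, 2.98 ± 0.38 and 2.43 ± 0.27. Introns 6 and 8 of Macrod2 are very long too and were not called, with 11, 44 and 10 and 31, 100 and 42 crosslinks. Crosslinks in the shorter introns of this gene were denser before intron 3, with 0.123, 0.614 and 0.328 per kb, than after it, with 0.0269, 0.0436 and 0.0201 per kb.

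Some other strong differences rested on a nearly empty reference. Intron 1 of Grik1, a kainate receptor subunit gene, had 45, 56 and 56 crosslinks against 1, 5 and 2 in 14 shorter introns. Intron 1 of Kcnq3, a potassium channel gene, had 103, 149 and 90 against 0, 4 and 1. Intron 2 of Fam107b had 57, 74 and 40 against 3, 10 and 2. The last introns of Agbl1, a relative of Agbl4, had 20, 40 and 31 (intron 21) and 50, 85 and 40 (intron 22) against 7, 16 and 5 in 18 shorter introns upstream. Grik1 intron 1 could not be tested once bases inside other genes on the strand were removed, and the Kcnq3 call was lost against introns of 10 to 100 kb alone.

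Erc2 intron 13 was called for a single place. It had 29, 20 and 70 crosslinks against 14, 12 and 9 in 13 shorter introns, and 26, 16 and 67 of them lay in the 41 nt printed above. Its call was lost without the densest 1 kb window, as were those of Nfia intron 2 and Cdh13 intron 5, while 26 of the 29 introns were still called. Genes of sperm, cilia and centrosomes, a list drawn up by symbol prefix, held 24 of the very long introns, of which 21 were tested, 7 were called higher and none lower. The 7 were 2 introns each of Spag16 and Agbl1 and 1 each of Agbl4, Cfap299 and Ccdc178. The prefixes also took in Lrrc4c and Lrrc7, which encode synaptic proteins, and Dync1i1, of cytoplasmic dynein, and none of these was called. Their median density was 0.396 per kb against 0.0334 over all very long introns, and their median log2 fold was 0.68 against 0.19.

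The introns called lower formed a different picture, since 19 calls came from 13 genes and 6 of them from Cntnap2. Cntnap2 encodes a neurexin-like adhesion molecule of axons. Its intron 10, of 112.8 kb, had no crosslink in any library. Introns 3, 8 and 15 had at most 2 in a library, and intron 1, of 593.6 kb, had 6, 17 and 2. The 17 shorter introns of the transcript, which all 6 tests share, had 69, 210 and 72. Of these, 67, 200 and 69 lay in the 8 introns downstream of intron 15, and only 2, 10 and 3 in the 9 introns upstream of it. The empty very long introns of Cntnap2 thus lay in an upstream part of the gene in which the shorter introns were nearly empty too.

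For most other genes of the group this arrangement could not be examined, since little or no shorter intron lies upstream. Intron 2 of Samd4, which encodes an RNA-binding translational repressor, had 5, 9 and 4 crosslinks, against 110, 179 and 86 in the 10 shorter introns downstream and none in the single intron upstream, which is only 0.634 kb long. The log2 fold was -4.89 ± 0.046 (SD, n = 3; largest adjusted p = 7.5e-26 by the exact binomial test). Intron 2 of Psd3, an exchange factor gene for a small GTPase, had 2, 6 and 2 crosslinks against 157, 224 and 144 downstream and 0, 1 and 0 in 83.9 kb upstream, an arrangement like that of Cntnap2 and picked out after its values were seen. Upstream of Lpp intron 3 the shorter introns had 2, 8 and 1 crosslinks in 62.8 kb. That is 0.0319, 0.127 and 0.0159 per kb, against 0.209, 0.401 and 0.226 downstream. Upstream of Nrxn3 intron 15 they had 0.0363, 0.0967 and 0.0201 per kb in 248.2 kb, against 0.174, 0.279 and 0.155 downstream. Upstream of Zcchc7 intron 2 they had 3, 3 and 3 crosslinks in 4.96 kb, or 0.605 per kb in each library, against 1.33, 1.5 and 1.73 downstream. All of these were also named after their values were seen. Intron 1 of Apba1, an adaptor protein gene, had 4, 9 and 4 crosslinks against 28, 59 and 26, a log2 fold of -4.03 ± 0.057. Introns 1 of Limch1, Cntnap5b and Sez6l and intron 3 of Gria4, an AMPA receptor subunit gene, had no crosslinks in 1 library each.

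First introns were 7 of the 19 called lower and 5 of the 29 called higher, of 256 tested. With bases inside other genes on the strand removed, a choice made after seeing the data, 16 of the 19 were still called lower and 27 of the 29 higher. Tmem178b, Sez6l and Zcchc7 were lost from the former, and Grik1 intron 1 was among those lost from the latter. With the densest window of every intron removed, 13 of the 19 were still called lower.

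By gene group the levels were as follows, and no difference between groups was tested. The 162 very long introns of cell adhesion and synapse scaffold genes had a median density of 0.0202 per kb, from 0 to 2.02, with 8 called higher and 8 lower of 112 tested. Glutamate and GABA receptor genes held 42 introns with a median of 0.0153 per kb and a median log2 fold of -0.73 over 19 tested, of which 1 was higher and 1 lower. Ion channel genes had 34 introns with a median of 0.0323 per kb and 1 higher call, that of Kcnq3, and the symbol prefixes of this list also took in Trps1, a transcription factor gene. No intron was called in either direction among 14 tested in receptor tyrosine phosphatase and phosphodiesterase genes and 9 tested in genes of RNA-binding proteins, with medians of 0.0268 and 0.0281 per kb. Over all tested very long introns 4.24% were called higher and 2.78% lower, and nothing is read from the lack of calls in so few introns.

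Along the introns, crosslinks thinned out from the upstream to the downstream end. The first 10 kb held 0.123, 0.233 and 0.136 crosslinks per kb, and the stretch from 90 to 100 kb held 0.0727, 0.182 and 0.0822. Counted from the other end, the last 10 kb held 0.0385, 0.0796 and 0.0382 per kb. The first 50% of the intronic bases, called the upstream part here, held 64.1%, 62.1% and 65.0% of the crosslinks, with 95% Clopper-Pearson intervals of 63.3 to 64.9%, 61.6 to 62.6% and 64.2 to 65.8%. These intervals take crosslinks as independent and cover counting error only, so they are too narrow where crosslinks cluster. In introns of 10 to 100 kb the upstream part held 55.4%, 54.7% and 55.1%. The difference was 8.66 ± 1.24 percentage points (SD, n = 3) and had the same direction in 3 of 3 libraries.

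**Figure D3:**
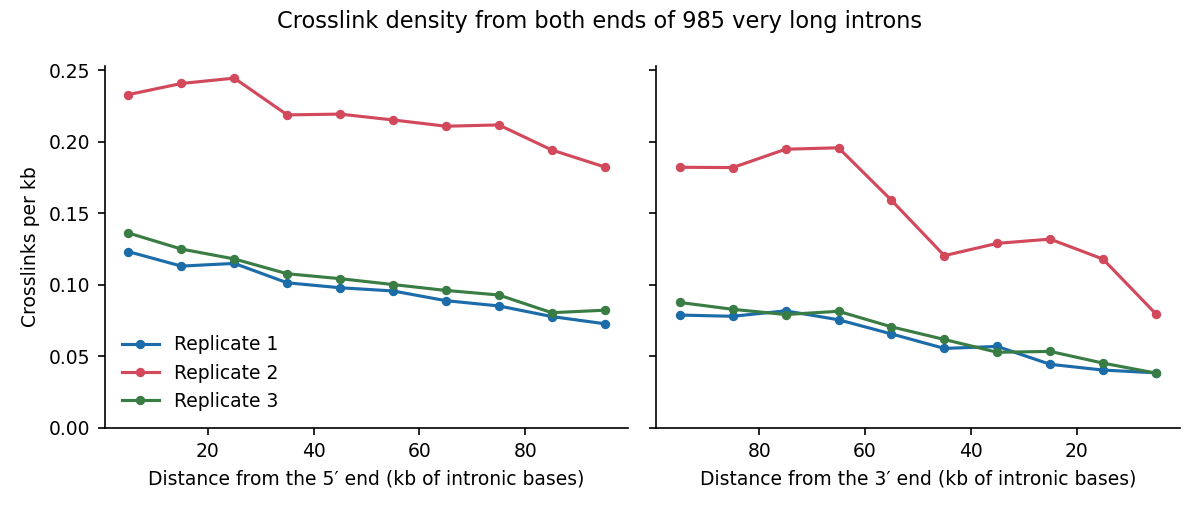
Crosslinks per kb (vertical axis) in 10 kb steps from the 5′ end (left) and the 3′ end (right) of 985 very long introns, with a line for each replicate. Density falls towards the 3′ end in each library, to 0.0385, 0.0796 and 0.0382 per kb in the last 10 kb.

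With each intron cut into 10 equal parts, the first part held 14.9% ± 1.3 of the crosslinks and the last 4.70% ± 0.18. In introns of 10 to 100 kb these parts held 12.3% ± 0.86 and 8.13% ± 0.24 (all SD, n = 3). The upstream share was 60.5% ± 1.7 in the 387 first introns and 65.4% ± 2.3 in the 598 later introns. It was 65.3%, 62.6% and 66.0% in introns of 200 kb or more and 63.0%, 61.6% and 64.1% in those of 100 to 200 kb, higher in the former in 3 of 3 libraries. Without the 10 most crosslinked introns the share was 62.5% ± 0.99.

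**Figure D4:**
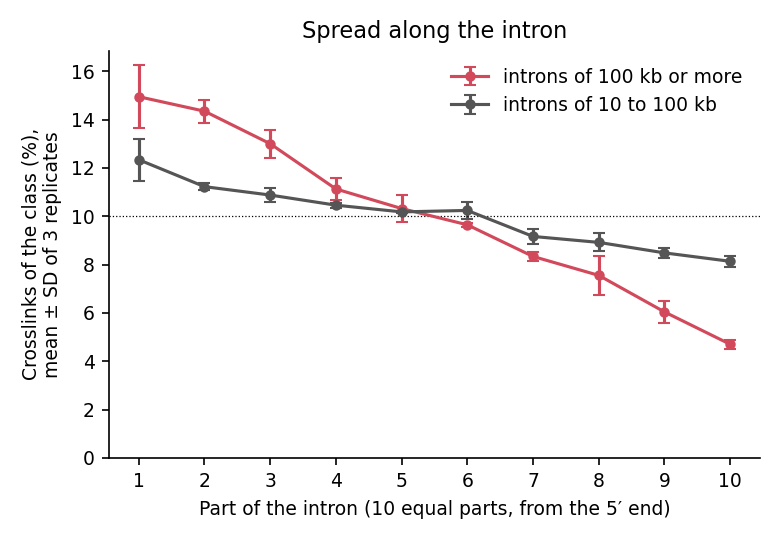
Share of crosslinks in each of 10 equal parts of the intron (horizontal axis, numbered from the 5′ end) for introns of 100 kb or more (red) and of 10 to 100 kb (grey), as mean ± SD of 3 replicates. The dotted line marks an even spread, and the red points fall from 14.9% to 4.70% while the grey points fall from 12.3% to 8.13%.

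Single introns departed from the average in both directions. Of 446 very long introns with at least 20 crosslinks, 34 were called for more crosslinks in the upstream part and 6 for more in the downstream part, against 1.33% and 0.442% of all introns of 10 kb or more. Without replicate 1 there were 52 upstream calls, and without replicate 3 there were 10 downstream calls. At 100 crosslinks or more, 19.5% of very long introns and 2.59% of introns of 10 to 100 kb were called upstream. Of the 29 introns with a high density, 16 were also called upstream and 1, in Fam107b, downstream. The middle 90% of the crosslinks of an intron spanned 80.3% of its length at the median, from 22.6% to 98.8%, and less than 50% in 18 introns.

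The most upstream crosslinks lay in intron 3 of Gm7247, where all 29 crosslinks of replicate 1, 98.3% of 119 in replicate 2 and all 30 of replicate 3 were upstream of the middle. Their median position was 7.63 kb from the 5′ splice site of an intron of 156.4 kb, and the first annotated start of another gene on the strand lay at 11.8 kb. In intron 2 of Ttc28 the upstream share was 92.7%, 90.8% and 90.9% of 55, 130 and 55 crosslinks. Intron 1 of Lhfpl3 had 95.8%, 86.4% and 82.8% of 48, 66 and 29. Intron 1 of Nrg3, a gene of a neuregulin growth factor, had 94.4%, 81.6% and 86.4% of 18, 49 and 22. The share in Erc2 intron 13 was 93.1%, 95% and 97.1%, all but a few of them in its single stretch at 4.54 kb.

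In 4 of the 6 introns called downstream, those of Hs3st4, Galntl6, Fam107b and Nalf1, crosslinks began far inside. In intron 1 of Hs3st4, a heparan sulfate sulfotransferase gene with this intron alone, the upstream part held 5.10%, 3.87% and 2.86% of 98, 155 and 105 crosslinks (largest adjusted p = 3.6e-19 by the exact binomial test). Its crosslinks began at 206.6 kb of 412.9 kb, taken as the position passed by 95% of them, and a long non-coding RNA gene, 4930551E15Rik, is annotated to start at 202.8 kb on the strand. In intron 2 of Galntl6, of a glycosyltransferase family, crosslinks began at 213.2 kb, and another Galntl6 transcript is annotated to start at 210.3 kb. The upstream share there was 3.85%, 0% and 5% of 26, 61 and 20 crosslinks.

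Intron 2 of Fam107b had 3.51%, 5.41% and 0% of its crosslinks upstream, and they began at 66.1 kb, beyond annotated starts of the gene at 55.7, 56.5 and 65.2 kb. In intron 1 of Nalf1, which encodes an auxiliary factor of a sodium leak channel, the upstream part held 0%, 8.64% and 6% of 51, 81 and 50 crosslinks. By the same rule they began at 205.2 kb, but replicate 1 had none in the upstream part. The median positions were 364.5, 363.4 and 368 kb in replicates 1, 2 and 3. The gene's own inner starts lie at 446.4 and 446.8 kb. On the strand, Gm55736, annotated as an rRNA gene, starts at 201.8 kb and the long non-coding RNA gene Gm64579 at 341.3 kb. Intron 2 of Atp5po, an ATP synthase subunit gene, had 11.1%, 11.1% and 7.14% of 18, 27 and 14 upstream. They began at 26.5 kb of 240.1 kb, and the protein-coding genes Cryzl1 and Donson are annotated to start inside it on the same strand. Intron 7 of Rad51b, a DNA repair gene, had 23.1%, 23.2% and 27.3% of 52, 69 and 55 crosslinks upstream, and they began at 32.8 kb of 330.4 kb. It is named here after its values were seen. The part of inner starts in these crosslinks was not tested, and 151 of the 446 introns contain an annotated start of their own gene.

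**Figure D5:**
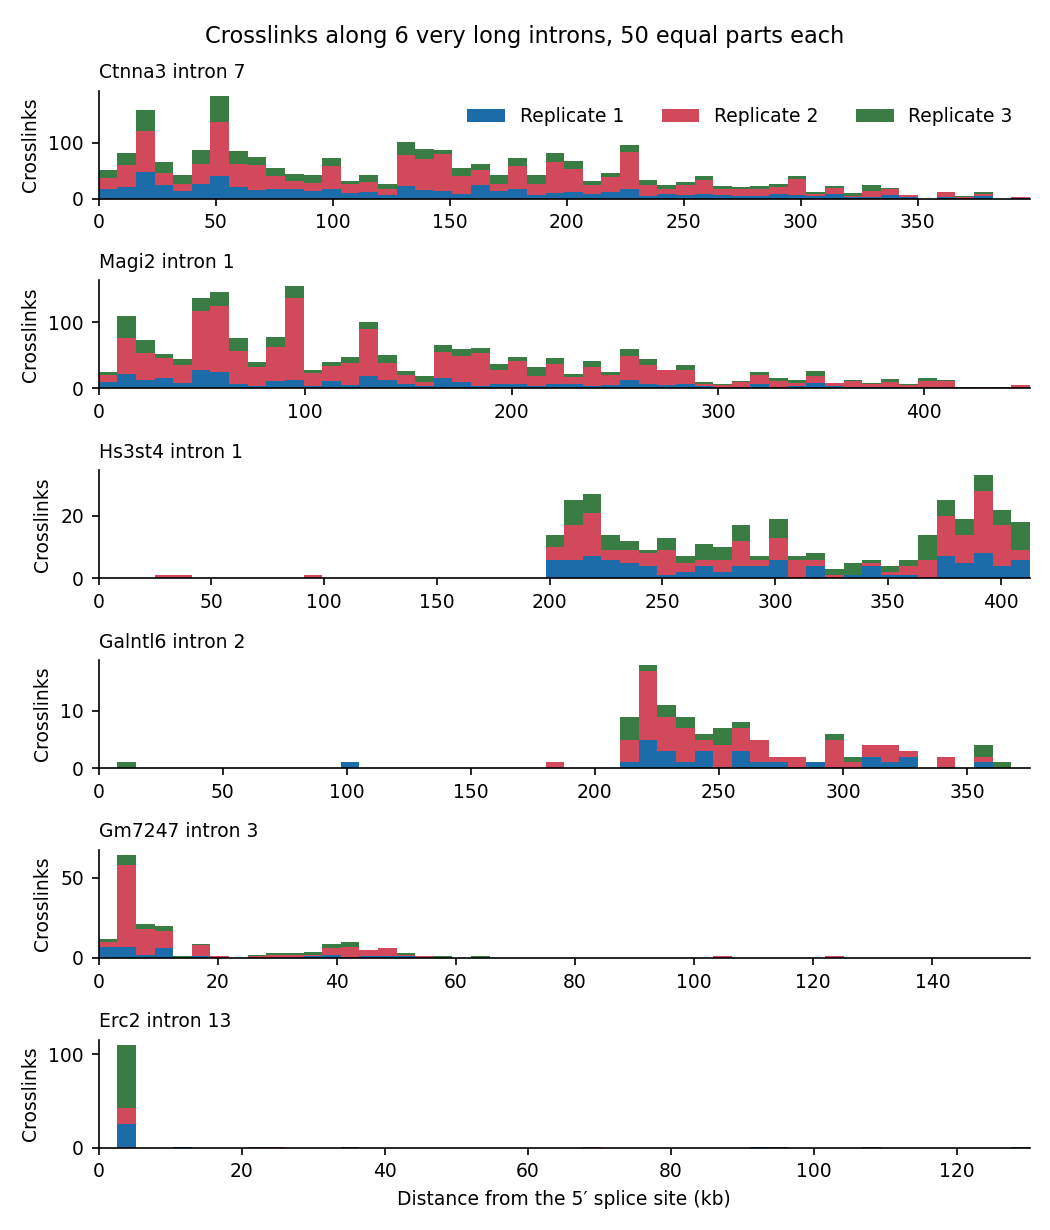
Crosslinks (vertical axis) in 50 equal parts of 6 very long introns by distance from the 5′ splice site in kb (horizontal axis), stacked by replicate. Ctnna3 and Magi2 are covered along their length with fewer crosslinks downstream, Hs3st4 and Galntl6 begin near 206.6 and 213.2 kb, Gm7247 is filled at its upstream end, and Erc2 has a single peak at 4.54 kb.

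Crosslinks were also clustered at short range. Another crosslinked position of the same library lay within 50 nt of 8.73%, 27.2% and 9.29% of the positions in replicates 1, 2 and 3. An even spread of the same number over each intron gives 3.82%, 8.25% and 3.82%. The ratio was 2.28, 3.30 and 2.43 (2.67 ± 0.55, SD, n = 3), against 1.72, 2.46 and 1.83 in introns of 10 to 100 kb, and was higher in very long introns in 3 of 3 libraries. The share itself was 9.20%, 23.6% and 10.3% in introns of 10 to 100 kb, where an even spread gives 5.34%, 9.56% and 5.66%, and was thus lower in very long introns in replicates 1 and 3. Within 10 nt the ratio was 5.08, 7.58 and 4.96 (5.87 ± 1.5) and within 200 nt 1.63 ± 0.064. Of the 174118 windows of 1 kb, 93.6%, 88.8% and 93.3% were empty, and windows with 10 or more crosslinks numbered 3, 232 and 6. These window counts are not scaled to depth.

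Few clusters stood out in every library. The densest window was chosen in a pair of libraries and tested in the third, and it was found again in each of the 3 turns in 10 of 446 introns, against 0.568% of all introns of 10 kb or more. There were 20 without replicate 1. The sequences printed above come from these windows. In Erc2 the window held 26, 16 and 67 crosslinks, all within the 41 nt, which is 89.7%, 80% and 95.7% of the intron. In Cmss1 it held 31, 423 and 33, of which 13, 177 and 16 lay in the 41 nt, and replicate 2 alone had 74.7% of its intronic crosslinks there. The window in Nkain2 had 4, 89 and 32, all in a run of adenines. No crosslink lay on the opposite strand between the first and last crosslink of any of the 10 windows. That span is at most 41 nt in Erc2 and Nkain2, so the whole windows were not covered. Where no gene is annotated opposite, antisense density in very long introns was only 0.00877, 0.0347 and 0.00917 per kb. An absence was thus likely in any such span, and nothing is read from it.

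The stretches were of several kinds. Those of Erc2 and Robo1 share the run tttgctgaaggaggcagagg of 20 nt, and those of Robo1 and Inpp4b share ggtaggatttgctgaagga of 19 nt, each with the pentamer GAAGG. Those of Erc2 and Inpp4b share 12 nt. These 3 stretches are thus related in sequence and are not separate examples of the pentamer. Whether their crosslinks come from 1 repeated RNA was not tested. The Robo1 stretch had 4, 6 and 6 crosslinks, 13 of them in total at 1 nucleotide, and the Inpp4b stretch had 3, 4 and 3. Afg2a, with GAAGA, had 4, 19 and 6. No listed pentamer occurred in the stretches of Cmss1, Cyp7b1 and Zbtb20, which had 13, 177 and 16, 5, 36 and 6, and 5, 2 and 15 crosslinks. The stretch of Cyp7b1, a steroid hydroxylase gene, overlaps the 5′ end of the small nuclear RNA gene Gm23686, whose exonic bases had been removed. Its window held 100%, 87.8% and 85.7% of the crosslinks of the intron. The stretches were also compared with 3908 annotated small and ribosomal RNA transcripts. In the sense direction that of Cyp7b1 shares 15 nt with Gm26110, another small nuclear RNA gene. Whether its crosslinks come from such RNAs was not tested. The stretches in the windows of Agbl4 and Nalf1 held only 9 and 2 crosslinks in total and are not shown.

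Whether these stretches are unique in the genome was examined because short reads from copies can be placed wrongly. Every printed 41 nt occurred once in GRCm39 except that of Nkain2, which occurred 35 times. Of the 25 nt parts starting at bases 1, 9 and 17, those of Robo1 occurred 1, 4 and 157 times, those of Zbtb20 13, 274 and 1 times and those of Nkain2 132, 4363 and 220645 times. All such parts of the other printed stretches occurred once. Copies absent from this assembly and copies with a mismatch were not searched, so a single match does not show where reads came from. The part of copies in these clusters was not tested. The 41 nt stretches of Cmss1 and Erc2 lay 19935 nt and 4521 nt from the nearest annotated exon on the strand.

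GAA-rich pentamers were enriched around the crosslinks of very long introns at large. One of the 5 pentamers began within 30 nt of 33.6%, 49.1% and 34.2% of the crosslinked positions. At all bases of the same introns, weighted alike, the share was 27.9%, 27.9% and 27.9%, so the ratio was 1.20, 1.76 and 1.23 (1.40 ± 0.31, SD, n = 3) and above 1 in 3 of 3 libraries. In introns of 10 to 100 kb it was lower by 0.025 ± 0.028, a difference within the spread between libraries. Positions with a neighbour within 50 nt had higher ratios of 1.33, 2.32 and 1.35, against 1.19, 1.55 and 1.21 for positions without one. The clustered crosslinks thus lay nearer to these pentamers than the single ones in 3 of 3 libraries.

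The signal followed the transcribed strand. Over bases with no gene annotated on the other strand, sense density was 0.0801, 0.187 and 0.0848 crosslinks per kb and antisense density 0.00877, 0.0347 and 0.00917. Their ratio was 9.13, 5.37 and 9.25, with replicate 2 the lowest. In introns of 10 to 100 kb it was 10.7, 5.18 and 9.91, and the order of the classes was not the same in the 3 libraries.

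Pooled over introns, bases beside annotated exons inside the very long introns had a higher crosslink density than the other bases. Each density was pooled over all introns with such exons, so differences between introns enter the ratio. It was not computed within single introns. Such exons, from other transcripts of the gene or from other genes on the strand, were present in 737 of the 985 introns. Within 500 nt of them, outside the exons themselves, density was 0.172, 0.407 and 0.185 crosslinks per kb, and in the rest of the same introns 0.0881, 0.202 and 0.0922. The ratio was 1.99 ± 0.035 (SD, n = 3), against 1.49 ± 0.074 in introns of 10 to 100 kb. It was 2.31 ± 0.11 within 200 nt and 1.74 ± 0.059 within 2 kb, and 1.80 ± 0.070 with exons of protein-coding genes only. With overlapping introns counted once it was 1.71 ± 0.12, and without the 10 most crosslinked introns 2.25 ± 0.053, both chosen after seeing the data.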

How the data were processed

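Tra2β iCLIP was carried out on adult wild type mouse testis in 3 biological replicates. The authors deposited whole-number counts of unique cDNAs per crosslinked nucleotide and strand, made with the iMAPS pipeline, neither normalised nor pooled. The submitters' processing notes name Trim Galore 0.6.7, Bowtie 1.3.1, STAR 2.7.9a, UMI-tools 1.1.2 and mm39, and the treatment of reads with several matches is not given in the sources used here. No crosslink lay beyond the end of a GRCm39 sequence. Introns of Ensembl canonical transcripts of protein-coding genes were taken from GENCODE vM39, and bases exonic in any transcript on the strand were removed. Counts were summed per intron with Python 3.11.15, numpy 2.4.6 and pandas 2.3.3.

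Density was tested for every intron of 64552 with at least 20 crosslinks in the intron and the reference together, by a two-sided exact binomial test (scipy 1.17.1) of its crosslinks against those of the other introns under 100 kb of the transcript, on their lengths. The 2 equal parts of an intron and its densest window were tested in the same way over the 3167 introns of 10 kb or more with at least 20 crosslinks. Values of p were adjusted over the whole table by the Benjamini-Hochberg method in each library, and a call needed each of the 3 libraries to pass an adjusted p of 0.05 with one direction. Log2 folds had 0.5 crosslinks added to each count. Crosslinks in clusters are not independent events, so these p-values are too small where clusters occur, and they measure counting error within a library. Where a quantity was compared over the 3 libraries, an exact sign-flip test cannot give a two-sided p below 0.25, so only directions and SDs are given. The density test was checked on simulated counts and the formula for an even spread on drawn positions, both without clusters. The tests of the 2 equal parts and of the densest window were not simulated. The members, gene lists and rules were chosen with earlier results of these data known.

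Introns were named by rule: the 10 with the most crosslinks, the 10 with the highest density, the 5 longest, the 10 with the most extreme folds in each direction, the 5 with the most uneven upstream shares in each direction, and the 10 densest windows. Some introns that meet these rules are not reported here. Depth was 348033, 619571 and 488719 crosslinks in replicates 1, 2 and 3. An intron of the median length with no crosslink in a library has a density of up to 0.0214 per kb there, at the limit of 3 counts, which covers counting error only. Alternatives were other length limits, references, filters, windows and distances, single counting of positions, removal of other genes, and each library left out.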

Additional observations from a re-analysis of the deposited data

How the results depend on the processing

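The ratios stayed above 1 and the upstream share above 50% under every alternative run. The ratio of observed to expected crosslinks within transcripts, 1.08, became 1.04 with a minimum length of 50 kb, 1.23 with 200 kb, 1.11 without first introns and 1.14 as the median over introns. Chosen after seeing the data, it was 1.36 as a Mantel-Haenszel ratio and 1.05 without the 10 most crosslinked introns. Summing the libraries before the exact binomial test gave 167 introns called higher, 108 lower, 198 upstream and 35 downstream. The share upstream, with the middle of 3 equal parts left out, was 68.8%. The neighbour ratio was 5.87 within 10 nt and 1.63 within 200 nt. The ratio beside inner exons was 2.31 within 200 nt, 1.74 within 2 kb and 1.80 with protein-coding exons only, and, chosen after seeing the data, 2.25 without the 10 most crosslinked introns and 1.71 with overlapping introns counted once. Leaving out each library in turn gave 40 to 52 upstream calls, 6 to 10 downstream calls, 11 to 20 windows found again, 32 to 39 higher calls and 20 to 25 lower calls. Fewer libraries have to pass in these settings, as in the summed test.

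No paired analysis was possible because there was 1 group. Taking out repeats was not run, since the genome used marks none. Depth limited the tests by intron, as 217, 19 and 184 very long introns had no crosslink in replicates 1, 2 and 3.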
